A study of Mus musculus with 6 samples.

Results

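Genes that make, break down and receive prostaglandin E2 were followed in femurs of ovariectomized mice. They were chosen by gene symbol, and all 10 listed were found among the 54532 genes of the table: the cyclooxygenases Ptgs1 and Ptgs2, the prostaglandin E synthases Ptges, Ptges2 and Ptges3, the dehydrogenase Hpgd, and the receptors Ptger1, Ptger2, Ptger3 and Ptger4. The series holds 6 samples in 2 groups of 3 wild-type (WT) mice, an OVX group with saline as the solvent control and a Zin group given zingerone, a compound of ginger, orally for 8 weeks at 100 mg/kg a day. Labels do not say whether Zin mice were ovariectomized. Values could be tied to their labels for the 3 OVX libraries alone, here OVX 1, OVX 2 and OVX 3. The Zin samples were not analysed here, so no effect of zingerone was tested, and every comparison below is between genes or between OVX libraries. OVX is read here as ovariectomy, a model of bone loss after loss of oestrogen. Titles give week 8, 9 and 10 to OVX 1, 2 and 3. The labels name both femoral tissue and the macrophage line RAW264.7. The design text speaks of biological replicates, but neither the age of the mice nor separate animals are named, so p-values describe differences among these libraries only, some of which may be technical.

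Prostaglandin E2 is made from arachidonic acid in steps. A cyclooxygenase, either the mostly constitutive Ptgs1 (COX-1) or the inducible Ptgs2 (COX-2), gives prostaglandin H2, and a terminal synthase turns this into prostaglandin E2. Hpgd begins the breakdown of prostaglandin E2, and the receptors EP1 to EP4, encoded by Ptger1 to Ptger4, pass its signal on. EP2 and EP4 raise cyclic AMP, whereas EP3 mostly lowers it and EP1 acts through calcium. In bone, prostaglandin E2 can promote both formation and resorption, in part through RANKL on cells of the osteoblast lineage.

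Libraries held 16581579 to 17017907 reads over all listed genes, and 14011 genes reached a mean FPKM of 1, the level required for testing. FPKM counts fragments relative to gene length and to the depth of the library. OVX 2 stood apart in its cell type markers. Summed over the markers listed for each type, osteoblast genes came to 2639, 6286 and 1849 FPKM in OVX 1, 2 and 3, osteoclast genes to 408, 1122 and 846, chondrocyte genes to 24.9, 577 and 54.7, and skeletal muscle genes to 1546, 136 and 896. Megakaryocyte genes came to 1611, 1061 and 1677 FPKM and macrophage genes to 488, 508 and 508. No marker of the 14 cell type lists was at 0 in all 3 libraries, and those of cartilage, muscle, red cells and B cells are not markers of a macrophage line. In such bulk samples fewer cells of a type and less RNA per cell cannot be told apart. Tests between libraries that rest on OVX 2 are therefore also given without it.

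A few stretches of sequence bear on the levels below. The first is shared by Ptges3 and its processed pseudogene Ptges3-ps, and is shown because reads from it fit both genes. Ptges3-ps lies on chromosome 6 (85843980 to 85844459, plus strand, mm10) and its 480 bases occur whole in the Ptges3 transcript of GENCODE M21, from base 332, where the coding sequence of 483 bases begins. The first 120 bases (chr6:85843980-85844099, GRCm38, plus strand) read as follows, with the start codon in capitals.
Ptges3-ps: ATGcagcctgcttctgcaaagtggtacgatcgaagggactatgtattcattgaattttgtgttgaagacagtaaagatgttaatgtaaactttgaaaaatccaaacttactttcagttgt

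The other sequences are the 250 bases before the start of Ptgs1 (chr2:36230176-36230425, plus strand) and of Ptgs2 (chr1:150099781-150100030, plus strand), from RefSeq on GRCm38.p6. They are shown because these genes catalyse the same step at very different levels. Capitals mark any match, on either strand, to 1 of 5 motifs. A TATA box was searched as TATAAA, and the box that binds NF-Y as CCAAT. A GC box was searched as GGGCGG and an E-box as CACGTG. The cyclic AMP response element was searched as TGACGTCA. No matches overlap in the stretches shown.
Ptgs1: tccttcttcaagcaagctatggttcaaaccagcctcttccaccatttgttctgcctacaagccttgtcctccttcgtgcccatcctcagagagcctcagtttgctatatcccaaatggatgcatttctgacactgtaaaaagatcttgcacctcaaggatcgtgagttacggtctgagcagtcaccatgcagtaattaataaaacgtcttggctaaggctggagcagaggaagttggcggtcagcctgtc
Ptgs2: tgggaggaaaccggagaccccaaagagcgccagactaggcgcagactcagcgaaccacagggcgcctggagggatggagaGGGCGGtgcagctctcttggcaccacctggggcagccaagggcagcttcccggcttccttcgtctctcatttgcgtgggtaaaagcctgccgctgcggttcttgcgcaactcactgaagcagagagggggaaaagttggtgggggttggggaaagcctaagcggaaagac

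Of the 2 cyclooxygenases, Ptgs1 was present at a moderate level and Ptgs2 was close to the limit of detection. Ptgs1 (ENSMUSG00000047250, chromosome 2, 36230426 to 36252272, plus strand) stood at 16.8, 14.4 and 14.6 FPKM in OVX 1, 2 and 3, from 1129, 944 and 935 reads, a mean of 15.3 ± 1.35 (SD, n = 3). OVX 1 was above the other 2 libraries, which lay close together. The libraries differed by more than their counting error (chi-square test with Benjamini-Hochberg adjustment, adjusted p = 0.000226), by 1.17-fold from lowest to highest. Without OVX 1 no difference was detected (adjusted p = 0.871). Ptgs1 is also a platelet enzyme, and the megakaryocyte sums above were lowest in OVX 2 but close in OVX 1 and OVX 3. Their part in the spread of Ptgs1 was not tested.

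Ptgs2 (ENSMUSG00000032487, chromosome 1, 150100031 to 150108227, plus strand) had 3, 15 and 5 reads, or 0.0379, 0.194 and 0.0660 FPKM. The exact Poisson 95% intervals ran from 0.00782 to 0.111, from 0.109 to 0.321 and from 0.0214 to 0.154 FPKM. OVX 2 was the highest, and its interval overlapped both others. Ptgs2 lay under the level required for testing. Over its 23 reads an exact multinomial test gave p = 0.00694, and the adjusted p over every gene with a read was 0.0262 (chi-square test), a setting in which 22.4% of genes were called. Both rest on OVX 2. Without it the 3 and 5 reads did not differ detectably (exact binomial test, p = 0.502), and the mean was 0.0520 FPKM instead of 0.0995. By length, Ptgs1 was 444 times as high as Ptgs2 in OVX 1 (95% counting interval 151 to 2155), 74.2 times in OVX 2 (44.8 to 133) and 221 times in OVX 3 (94.2 to 681). The order held in every OVX library, while the size of the ratio rests on the few Ptgs2 reads.

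**Figure D1:**
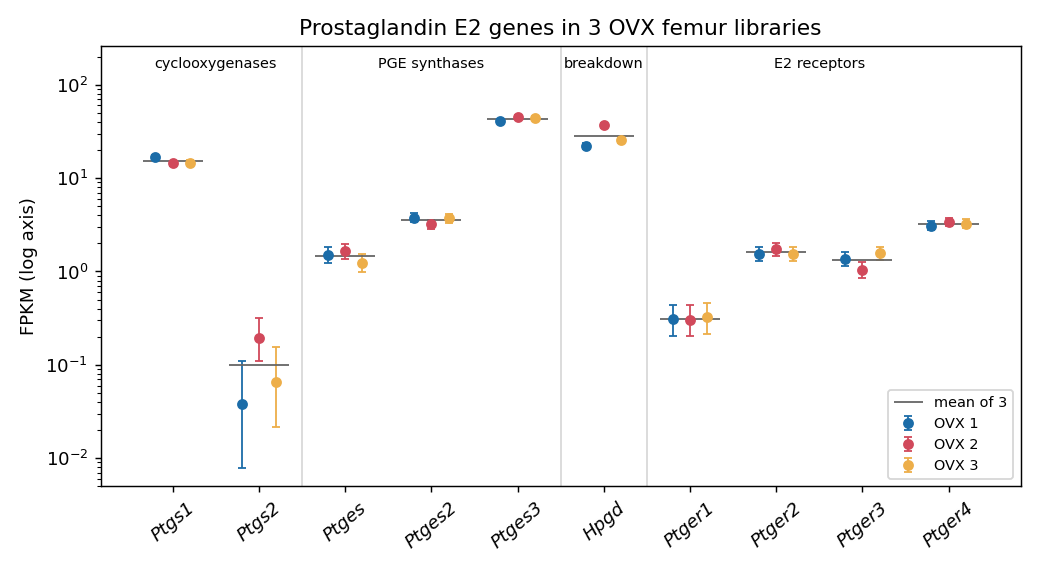
FPKM (log axis) of the 10 genes in OVX 1, 2 and 3, grouped by role. Points are libraries with exact Poisson 95% intervals, and grey lines are means of 3. Levels span from 0.0995 FPKM for Ptgs2 to 43.3 FPKM for Ptges3.

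Among the terminal synthases, Ptges3 was far above Ptges2 and Ptges. Ptges3 (ENSMUSG00000071072, chromosome 10, 128058954 to 128077272, plus strand), a synthase better known as the HSP90 co-chaperone p23, stood at 40.6, 45.4 and 43.8 FPKM, a mean of 43.3 ± 2.44 (SD, n = 3). Its reads were 1557, 1697 and 1605, lowest in OVX 1 and highest in OVX 2, with no difference past the threshold (chi-square test, adjusted p = 0.0853). Ptges2 (ENSMUSG00000026820, chromosome 2, 32395896 to 32405772, plus strand), the membrane-associated synthase 2, stood at 3.75, 3.19 and 3.72 FPKM, a mean of 3.55 ± 0.314. OVX 2 was the lowest, with no difference past the threshold (adjusted p = 0.121). Ptges (ENSMUSG00000050737, chromosome 2, 30889471 to 30929863, minus strand), the inducible microsomal synthase that couples to Ptgs2, stood at 1.50, 1.65 and 1.23 FPKM, a mean of 1.46 ± 0.211. Its 102, 109 and 80 reads gave no detectable difference (adjusted p = 0.233).

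Within a library Ptges3 was 12.3 ± 1.76 times as high as Ptges2 and 30.1 ± 4.76 times as high as Ptges, and Ptges2 was 2.49 ± 0.541 times as high as Ptges (SD, n = 3). The 3 synthases kept this order in each OVX library, with ranges that did not overlap. The inducible pair Ptgs2 and Ptges was thus the lower one at both steps in these femurs.

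Reads that lie wholly in the 480 bases shared by Ptges3 and its pseudogene fit both genes by sequence. The first 120 of these bases are printed above. The whole shared stretch makes up 21.7% of the listed length of Ptges3. Ptges3-ps was listed at 62.2, 36.6 and 51.2 FPKM, from 516, 296 and 406 reads, and was thus highest in OVX 1 and lowest in OVX 2, the reverse of Ptges3. These libraries differed by 1.70-fold (chi-square test, adjusted p = 2.76e-12, and 0.011 without OVX 2). A second pseudogene with at least 90% identity over 200 bases or more, Gm11893, had 1, 0 and 1 reads. Adding the reads of both copies to Ptges3 gave 2074, 1993 and 2012 reads, and on the length of Ptges3 54.1, 53.4 and 54.9 FPKM, a mean of 54.1 ± 0.763 (SD, n = 3). On this sum the coefficient of variation was 1.41%, against 5.63% for Ptges3 alone, and the adjusted p was 0.56 (chi-square test). How reads that fit both genes were assigned was not tested, so the sum is not a measured level of Ptges3 itself. By the same search with the longest coding transcript, none of the other 9 genes had such a copy in GENCODE M21.

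**Figure D2:**
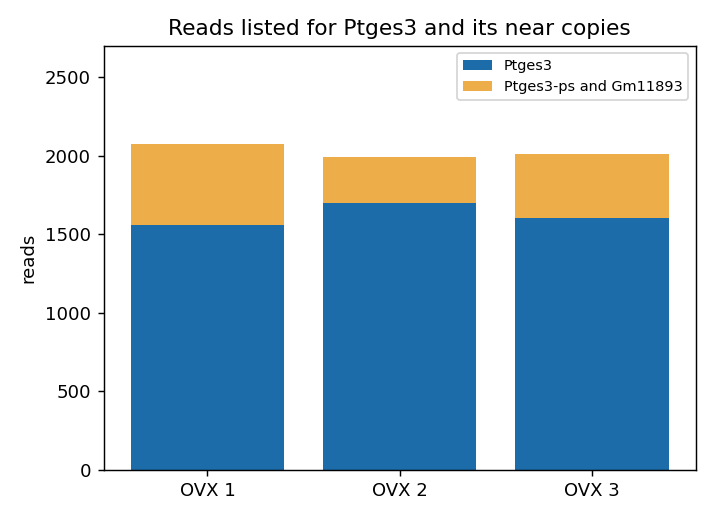
Reads listed for Ptges3 (blue) and for its copies Ptges3-ps and Gm11893 (yellow) in each OVX library. Stacked bars come to 2074, 1993 and 2012 reads, while the blue part alone is lowest in OVX 1.

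Hpgd, which oxidizes the 15-hydroxyl group of prostaglandin E2, had the largest coefficient of variation of the 8 members tested, at 27.2%. Hpgd (ENSMUSG00000031613, chromosome 8, 56294585 to 56321043, plus strand) stood at 22.0, 36.9 and 25.9 FPKM, from 641, 1045 and 720 reads, a mean of 28.3 ± 7.69 (SD, n = 3). OVX 2 was clearly above the others, and the range was 1.67-fold (chi-square test, adjusted p = 1.74e-23). Without OVX 2 the adjusted p was 0.0492, with OVX 3 still above OVX 1. The summed osteoblast, osteoclast and chondrocyte markers were also highest in OVX 2. So were the summed neutrophil markers, those of adipocytes, at 160, 324 and 103 FPKM, and those of mast cells and basophils, at 126, 166 and 138. Of the 8 neutrophil markers 4 were highest in OVX 2 and 4 in OVX 1. The part of all these cells in the level of Hpgd was not tested. The ratio of Hpgd to Ptgs1, the enzymes of breakdown and of synthesis, was 1.31 in OVX 1, 2.55 in OVX 2 and 1.78 in OVX 3, with 95% counting intervals of 1.19 to 1.44, 2.34 to 2.79 and 1.61 to 1.96. These intervals did not overlap. The size of the ratio, and its direction in OVX 1, depend on the lengths used. Per longest coding transcript in GENCODE M21 it was 0.967 in OVX 1, with an interval of 0.876 to 1.07 that includes equal levels, 1.89 in OVX 2 (1.73 to 2.06) and 1.31 in OVX 3 (1.19 to 1.45).

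Of the receptors, Ptger4 led and Ptger1 was the lowest. Ptger4 (ENSMUSG00000039942, chromosome 15, 5206661 to 5244187, minus strand), which encodes EP4, stood at 3.09, 3.42 and 3.26 FPKM, a mean of 3.26 ± 0.165 (SD, n = 3). Ptger2 (ENSMUSG00000037759, chromosome 14, 44988195 to 45003820, plus strand), which encodes EP2, stood at 1.55, 1.73 and 1.54 FPKM, a mean of 1.60 ± 0.106. For neither did the libraries differ detectably (chi-square test, adjusted p = 0.661 for Ptger4 and 0.705 for Ptger2). These 2 cyclic AMP-raising receptors kept a steady proportion, with Ptger4 at 1.99, 1.98 and 2.12 times Ptger2 in OVX 1, 2 and 3 on the listed lengths. The size of this ratio depends on the length used.

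Ptger3 (ENSMUSG00000040016, chromosome 3, 157566892 to 157645888, plus strand), which encodes EP3, stood at 1.37, 1.04 and 1.57 FPKM from 135, 100 and 148 reads, a mean of 1.33 ± 0.268 (SD, n = 3). OVX 2 was the lowest, and the range of 1.51-fold passed the threshold (chi-square test, adjusted p = 0.0163). It did not pass without OVX 2 (adjusted p = 0.555) or without OVX 3 (0.0729). Ptger1 (ENSMUSG00000019464, chromosome 8, 83666678 to 83672753, plus strand), which encodes EP1, stood at 0.307, 0.304 and 0.321 FPKM from 29, 28 and 29 reads, and was under the level required for testing (exact multinomial test, p = 0.99). Of the summed receptor FPKM, Ptger4 made up 50.1% ± 2.24, Ptger2 24.7% ± 1.81, Ptger3 20.4% ± 3.89 and Ptger1 4.79% ± 0.0892 (SD, n = 3). These shares rest on the listed lengths, and the order of Ptger2 and Ptger3 by mean turns with the length used, as given below.

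**Figure D3:**
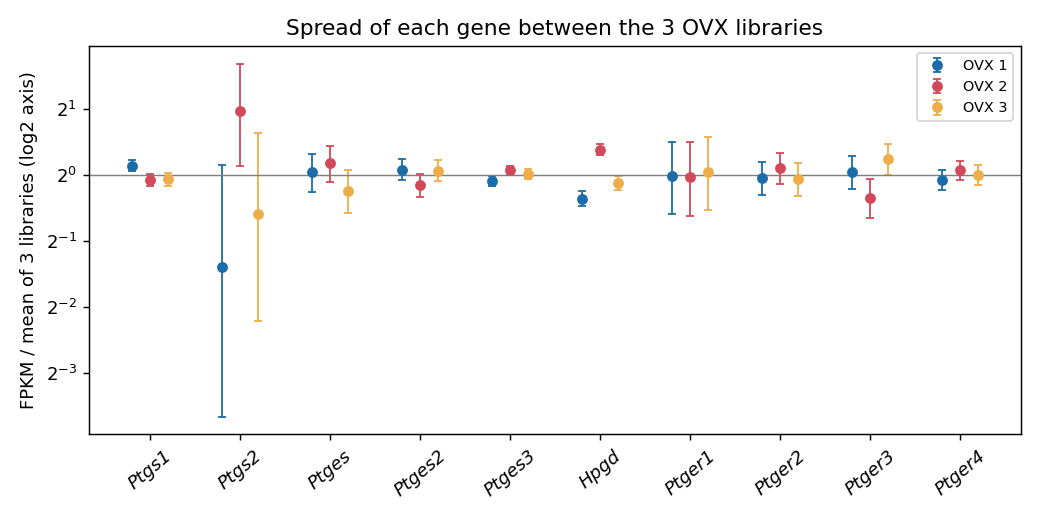
FPKM of each gene in each OVX library divided by its mean over the 3 (log2 axis), with exact Poisson 95% intervals. Hpgd in OVX 2 stands above the line and Ptger3 in OVX 2 below it, while the wide intervals of Ptgs2 come from 3, 15 and 5 reads.

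Of the 10 genes 8 reached the level required for testing, and 3 of these 8, Ptgs1, Hpgd and Ptger3, differed between the OVX libraries. Over all 14011 genes tested 38.7% did so, so a count of 3 in 8 lies near the background. The median coefficient of variation was 8.83% over the 8 genes and 7.49% over all genes tested. In OVX 2 stood the highest value of 5 of the 8, and of 34.8% of all tested genes. This test compares libraries with counting noise and not conditions, and it calls genes with many reads more easily.

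Ordered by mean FPKM, the genes ran Ptges3, Hpgd, Ptgs1, Ptges2, Ptger4, Ptger2, Ptges, Ptger3, Ptger1 and Ptgs2. Their ranks among all listed genes went from 1190 for Ptges3 to 21586 for Ptgs2. Ranges of neighbours overlapped for Ptges2 and Ptger4, for Ptger2 and Ptges, and for Ptges and Ptger3, so these orders are not larger than the spread. All other neighbours were separate, although Ptger1 and Ptgs2 rest on few reads.

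Part of this order depends on the length by which reads are divided. Listed lengths are the union of all exons of a gene, 6648 bases for Ptger4 and 5688 for Ptger3, against 3312 and 3148 for their longest coding transcripts in GENCODE M21. Dividing by the latter put Ptger4 at 6.54 ± 0.331, above Ptges2 at 3.61 ± 0.319, with ranges that no longer overlapped. Ptger3 became 2.40 ± 0.484 and Ptger2 2.26 ± 0.149 (SD, n = 3), with overlapping ranges. Ptger3 thus moved above Ptger2 and Ptges, and Ptges, at 1.33 to 1.77, now lay wholly below both receptors, at 1.89 to 2.84 and 2.17 to 2.43. Ptgs1 stood at 22.8, 19.5 and 19.7 and Hpgd at 22.0, 36.9 and 25.9 in OVX 1, 2 and 3. Hpgd kept the higher mean, but in OVX 1 it was below Ptgs1, and the ranges of these genes overlapped.

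**Figure D4:**
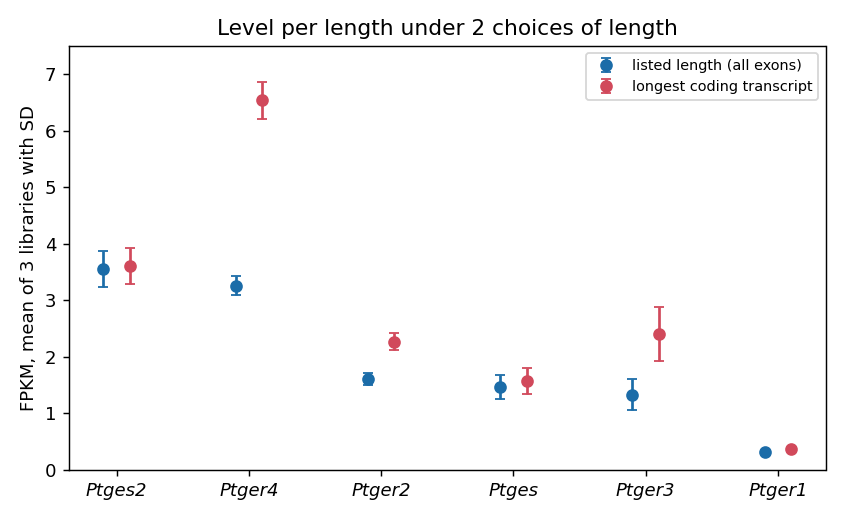
Mean FPKM with SD (n = 3 OVX libraries) of 6 genes, per listed length (blue) and per length of the longest coding transcript (red). Ptger4 moves from 3.26 to 6.54 and separates from Ptges2, while Ptges2 and Ptges hardly move.

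Promoter windows were found in RefSeq for 9 of the 10 genes, and not for Ptger1. Over 250 bases before and 50 after the start, the median GC content was 59.3% for these 9 and 52.7% over all 32851 windows, and the median number of CpG was 16 against 7. Ptges3 was the richest, at 73.7% GC and 46 CpG, and Ptger2 the poorest, at 37.7% GC and 3 CpG. A GC box was present in 6 of the 9 windows and in 35.7% of all windows. Ptgs2 had 1 GC box, in capitals above, and an E-box at bases 17 to 22 after its start, a motif held by 7.15% of all windows. Hpgd held the only match to the TATA box letters, at bases 5 to 10 after its start and not before it, against 13.6% of all windows. CCAAT occurred in Ptger2 and Ptger4 (37.4% of all). The full cyclic AMP response element was in none of the 9 and in 1.79% of all windows. Ptgs1 held none of the 5 motifs. Such matches describe letters and show no binding.

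Further genes of the pathway came from lists of 66 symbols, of which 62 genes were in the table, 51 were tested and 30 differed between the OVX libraries by the chi-square test, where 38.7% of all genes did. Without OVX 2 it was 15 of the 51, where 18.0% of all genes differed. Release of arachidonic acid was led by the lipases Pnpla2 at 26.3 ± 2.49 and Mgll at 23.9 ± 0.325 FPKM (SD, n = 3), and 5 of 9 tested genes of this list differed. Without OVX 2 this count was 0 by the chi-square test, and also 0 at an unadjusted p under 0.05. The cytosolic phospholipase Pla2g4a, the classical source of arachidonate for cyclooxygenases, stood at 5.31, 4.53 and 5.36 FPKM. The secreted Pla2g5 stood at 1.44, 5.78 and 1.32 FPKM, highest in OVX 2 (chi-square test, adjusted p = 5.65e-46), and did not differ detectably without that library (0.735). Pla2g4a and Pla2g5 were named after their values had been seen.

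Prostaglandin H2 also feeds other synthases, and 4 of 6 tested genes of this list differed, with OVX 2 and without it. Over all tested genes 38.7% differed, and 18.0% without OVX 2. Fam213b, which makes prostaglandin F2 alpha and its ethanolamide, stood at 20.5 ± 0.938 FPKM (SD, n = 3). Ptgis, the prostacyclin synthase, stood at 8.48, 30.5 and 12.5 FPKM, so that OVX 2 exceeded OVX 1 by 3.60-fold (chi-square test, adjusted p = 4.91e-146). Without OVX 2 the adjusted p was 9.82e-07, with OVX 3 above OVX 1. The thromboxane synthase Tbxas1 and the hematopoietic prostaglandin D synthase Hpgds, both named after their values had been seen, were instead lowest in OVX 2, at 8.85, 6.40 and 8.10 FPKM and at 5.49, 3.55 and 4.42 FPKM. Without OVX 2 both still differed between OVX 1 and OVX 3 (adjusted p = 0.0391 for Tbxas1 and 0.00149 for Hpgds). Ptgis had the same order of libraries as Hpgd. Every osteoclast marker had this order too, as did the summed chondrocyte markers, although Col2a1 and Col9a1 among the latter were higher in OVX 1 than in OVX 3. Csf1r and Vcam1 among macrophage markers and Foxc1 and Pdgfra among stromal markers also had it. Other markers of these lists had other orders, and the stromal sum was highest in OVX 3. Sums of neutrophil markers and of mast cell and basophil markers had the order of Ptgis and Hpgd as well. Among neutrophil markers, however, only S100a8 and S100a9, the most abundant, had it, and Elane, Mpo and Cxcr2 were lowest in OVX 2. Fcer1a and Kit among the mast cell and basophil markers were highest in OVX 1. The summed osteoblast markers were highest in OVX 2 but lowest in OVX 3, although Ibsp, Alpl and Spp1 among them were lowest in OVX 1. Megakaryocyte markers were lowest in OVX 2 as Tbxas1 and Hpgds were, but their sum was highest in OVX 3. Every skeletal muscle marker had the full order of Tbxas1 and Hpgds, with OVX 1 highest. The summed B cell markers had that order too, although Vpreb1 and Igll1 among them were highest in OVX 2. Sums of endothelial and of T and NK cell markers were also lowest in OVX 2. The endothelial sums were close, at 55.3, 54.2 and 55.6 FPKM, and Kdr and Emcn among these markers were highest in OVX 2. Most of the T and NK cell sum came from Nkg7, at 41.2, 35.5 and 41.2 FPKM. Trac in that list was highest in OVX 2, and Klrb1c and Ncr1 were lowest in OVX 1. This is a description over 3 libraries, which allow few orders, and the share of all genes with each order was not counted. The part of those cells was not tested.

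Of transport and further breakdown, 2 of 4 tested genes differed, and 1 without OVX 2, led by the reductase Ptgr1 at 16.4 ± 1.23 and the exporter Abcc4 at 7.59 ± 0.222 FPKM (SD, n = 3). Beside this count and those of the lists that follow, 38.7% of all tested genes differed, and 18.0% without OVX 2. Other prostanoid receptors were led by the prostacyclin receptor Ptgir at 8.86 ± 0.749 and the thromboxane receptor Tbxa2r at 8.34 ± 0.815 FPKM, both above Ptger4 on the listed lengths, and 2 of 3 tested genes differed, but 0 without OVX 2 (chi-square test, also 0 at an unadjusted p under 0.05). The leukotriene branch, which also uses arachidonate, was led by Alox5ap, the protein that activates arachidonate lipoxygenase, at 84.7 ± 2.83 and the leukotriene B4 receptor Ltb4r1 at 54.2 ± 1.21 FPKM. There 2 of 7 tested genes differed, and 0 without OVX 2 by either count. With all libraries the list had a median range of 1.07-fold against 1.15-fold over all genes tested.

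**Figure D5:**
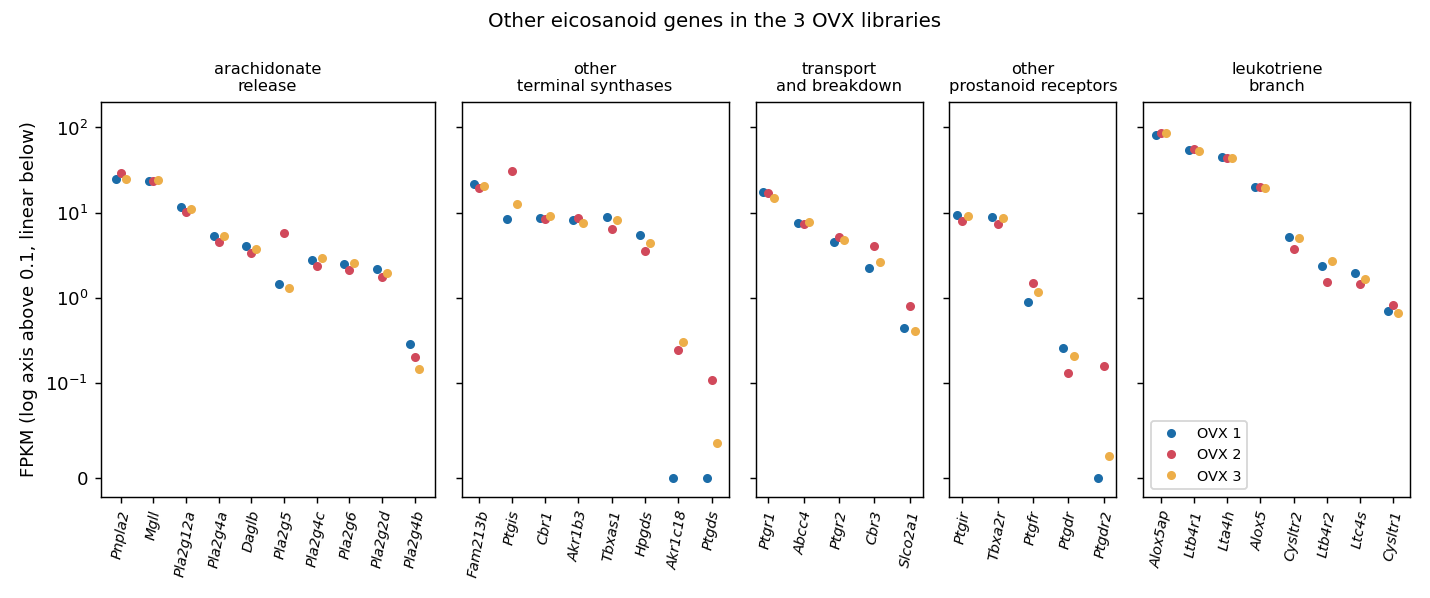
FPKM (log axis above 0.1, linear below) of other eicosanoid genes in OVX 1, 2 and 3, in 5 groups by role. Pla2g5 and Ptgis are highest in OVX 2, at 5.78 and 30.5 FPKM, and the 4 leading leukotriene genes show nearly the same value in each library.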

How the data were processed

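Femoral RNA was sequenced by a commercial provider, per the labels' protocols. Per the submitters' processing notes the pipeline named Trimmomatic, FastQC, STAR and featureCounts on build mm10, while their versions, strand setting and annotation were not given in the sources used here. Without a known strand setting, reads of genes that overlap on opposite strands cannot be told apart. A result on such an overlap is not reported here. Values are FPKM as the authors deposited them, beside 1 length per gene. Of 54495 listed genes also in GENCODE M21, 98.0% had a length equal to the union of their exons there. Columns were used where their names equal a library name in the labels, which held for OVX 1, 2 and 3. A further 3 columns of values matched no label and were not used, and the planned limma comparison of zingerone with OVX was not run.

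FPKM multiplied by length, and divided by the value of 1 read fitted for each library, was a whole number of reads, within 0.01 read, for 100% of values. The totals that this implies, 17279919, 16845977 and 16533661 reads in OVX 1, 2 and 3, differ from the totals of listed reads used next and in the tests. Totals of 17017907, 16964740 and 16581579 reads mean that 3 reads, the limit that a count of 0 allows, are 1.76e-05%, 1.77e-05% and 1.81e-05%. Intervals are exact, at 95%, and cover counting error only. Reads were tested between libraries by chi-square against the library totals, for genes whose mean FPKM was 1 or more, with Benjamini-Hochberg adjustment over all of them and a threshold of 0.05. Near copies of each gene were sought with BLAST 2.17.0 at 90% identity over 200 bases. Members and gene lists were chosen with earlier results of these data known. All 10 members are named, and of each list the 2 genes with the highest mean, others being marked. With 3 libraries no search over all genes for like patterns was made. Orders of libraries were compared only among listed genes and cell type markers. Alternatives were other filters, scalings and lengths, and leaving out each library. Software was Python 3.11.15 with scipy 1.17.1, matplotlib 3.10.9, numpy 2.4.6 and pandas 2.3.3.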

Additional observations from a re-analysis of the deposited data

How the results depend on the processing

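Mean levels of the 10 genes moved by less than 1 SD with FPKM recomputed from reads and with median-of-ratios scaling. Leaving out 1 of 3 libraries can never move a mean by 1 SD, so that setting says nothing on this scale. For Ptgs2, whose SD of 0.0834 is close to its mean of 0.0995, leaving out OVX 2 gave 0.0520 FPKM. TPM is another unit and gave 40.2 for Ptgs1, 0.262 for Ptgs2, 3.85 for Ptges, 9.35 for Ptges2, 113.9 for Ptges3, 74.3 for Hpgd, 0.818 for Ptger1, 4.22 for Ptger2, 3.49 for Ptger3 and 8.56 for Ptger4, in the same order. Per longest coding transcript, chosen after seeing the data, Ptgs1 was 20.7, Ptges3 48.0, Ptger1 0.362, Ptger2 2.26, Ptger3 2.40 and Ptger4 6.54, and with its copies Ptges3 was 54.1. The ratio of Hpgd to Ptgs1 in OVX 1 turned from 1.31 to 0.967 on this length. Members called were 3 of 8 tested, where 38.7% of all tested genes were called. With no filter they were 4 of 10 (Ptgs2 added), against 22.4% of all genes. Raising the required level to 5 FPKM left only 3 members tested, of which 2 were called, against 44.9%. With median-of-ratios totals 4 of 8 were called (Ptges3 added, adjusted p = 0.0182 by the chi-square test), against 37.4%. With 1 library left out 2 to 3 of 8 were called, against 18.0% to 29.8%. Ptges3 also passed without OVX 3 (0.0390). Called over all genes were 5418 of 14011 tested, and 3478 of 13963 without OVX 1, 2527 of 14045 without OVX 2 and 4177 of 14024 without OVX 3. No paired analysis was possible because values of 1 group alone could be tied to labels. For the same reason no alternative of the zingerone comparison was run. Depth limits Ptgs2 and Ptger1, with at most 15 and 29 reads in a library.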

Other observations

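Genes around prostaglandin E2 signalling that the account above leaves out were also measured. Of genes known to induce or to control Ptgs2, the NF-kB inhibitor Nfkbia stood at 65.2, 77.2 and 65.1 FPKM in OVX 1, 2 and 3 and the transcription factor Cebpb at 43.3, 49.6 and 51.8. The cytokines Il1b and Tnf, named after their values had been seen, stood at 12.4 ± 1.56 and 2.66 ± 0.710 FPKM (SD, n = 3), both far above Ptgs2 at 0.0995. Of this list 5 of 8 tested genes differed between libraries by the chi-square test, where 38.7% of all tested genes did. Without OVX 2 it was 2 of 8, where 18.0% of all genes did. Nfkbia was among those that no longer passed (adjusted p = 0.744), as was Tnf (0.801).

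Genes that respond to cyclic AMP, the messenger of EP2 and EP4, were led by the phosphatase Dusp1 at 23.8 ± 1.63 and the kinase Sik1 at 18.9 ± 1.86 FPKM (SD, n = 3), and 6 of 9 tested genes differed, or 4 of 9 without OVX 2. Of genes that prostaglandin E2 is known to act on in bone, Cyr61, a matrix signalling protein, stood at 10.3, 21.3 and 13.0 FPKM and the growth factor Igf1 at 5.38, 5.32 and 4.48, and 4 of 5 tested genes differed, with OVX 2 and without it. The shares of all genes given above apply to these counts too. Without OVX 2 the adjusted p of Cyr61 was 0.0187 (chi-square test). Named after their values had been seen, Tnfsf11, which encodes RANKL, stood at 1.27, 2.73 and 2.62 FPKM and its decoy receptor Tnfrsf11b at 1.09, 6.38 and 3.09. Both were lowest in OVX 1, as was Hpgd. Beside these bone genes, summed osteoblast markers stood at 2639, 6286 and 1849 FPKM and summed osteoclast markers at 408, 1122 and 846, and their part in these differences was not tested.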
